A study of Mus musculus with 19 samples.

Results

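The aminoacyl-tRNA synthetase genes were read in CBFA2T2 ChIP-seq of mouse neural stem cells. Members were the RefSeq protein-coding genes whose symbol is a single capital letter followed by "ars", with or without a final 2, together with Eprs, Farsa and Farsb. This gave 36 genes of 21887 protein-coding genes on chromosomes 1 to 19, X and Y. By their symbols 19 code for cytosolic enzymes and 17, with symbols ending in 2, for mitochondrial ones. The cytosolic methionine enzyme has the symbol Mars1 in this annotation and falls outside the rule, so its values are given apart. Of 19 libraries in the series, 2 were used, both with CBFA2T2 antibody, and their lists hold 6920 peaks (H3.3WT) and 8272 peaks (H3.3K27M). Both come from NE-4C, a neural stem cell line without p53 in which the histone H3.3 gene H3f3a was also knocked out. A stable transgene then supplied H3.3 with an HA tag, unaltered in the H3.3WT cells and with methionine in place of lysine 27 in the H3.3K27M cells. Neither was labelled as a Cbfa2t2 knockout, and the CBFA2T2 ChIP of knockout cells was not analysed here, so the background of the antibody at these genes is not known. Whether each line was a single clone, and which promoter drove the tagged histone, was not given in the sources used here. There was 1 library per genotype, so no difference between genotypes could be tested. Peak lists hold no expression values, so the cell type label could not be checked against marker genes.

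Aminoacyl-tRNA synthetases join each amino acid to its tRNA, the step that fixes the genetic code in translation. Cytosolic enzymes serve the ribosomes of the cytoplasm, and a separate set, also encoded in the nucleus, serves mitochondrial ribosomes. The cytosolic genes for lysine and glycine, Kars and Gars, supply both compartments. Several cytosolic enzymes are held together in the multi-synthetase complex, and many cytosolic synthetase genes are induced by the transcription factor ATF4 when amino acids are scarce. In the nervous system, inherited variants of cytosolic members such as GARS and YARS are known from peripheral neuropathy, and those of EARS2 and AARS2 from leukoencephalopathy. CBFA2T2 is a corepressor of the MTG (ETO) family that reaches DNA through other proteins.

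Most synthetase genes carried a CBFA2T2 peak. A gene was counted as marked if a peak summit lay within 1 kb of either annotated gene end, and of several peaks the one with the largest −log10 q gave its values. In the H3.3WT list 28 of 36 members were marked (77.8%), where 24.8% of all protein-coding genes were. In the H3.3K27M list 27 of 36 were marked (75.0%), against 28.6% of all protein-coding genes. Marked in both lists were 24 members (66.7%), against 22.2% of all genes. Whether marked genes were the active ones could not be read from these lists. Hars and Hars2 share their peak, so the 28 and 27 genes were reached by 27 and 26 peaks.

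Cytosolic genes were marked more completely than mitochondrial ones at their gene ends. Of the 19 cytosolic genes, 18 had a peak in H3.3WT and 16 in H3.3K27M, and these 16 were marked in both. Of the 17 mitochondrial genes, 10 and 11 were marked, with 8 in both. Among cytosolic enzymes outside the multi-synthetase complex, all 12 were marked in both lists (Aars, Cars, Farsa, Farsb, Gars, Hars, Nars, Sars, Tars, Vars, Wars and Yars). Sars was marked in H3.3K27M alone with a −log10 q of at least 5, or with summits within 500 bp. With peaks of at least 5 fold, Gars, Hars, Sars and Tars were each marked in a single list. Of the 7 members in the complex, 6 were marked in H3.3WT and 4 in H3.3K27M. Eprs was the complex member without a gene-end peak in either list, though its annotated start had a peak in both. Mars1, also of the complex and marked in both lists, is outside the rule and not counted among the 7. Among mitochondrial genes, Aars2, Lars2, Tars2 and Wars2 had no gene-end peak in either list, and all of these but Lars2 had a start peak in both. The groups inside and outside the complex were set with values known, and no difference between groups was tested.

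**Figure D1:**
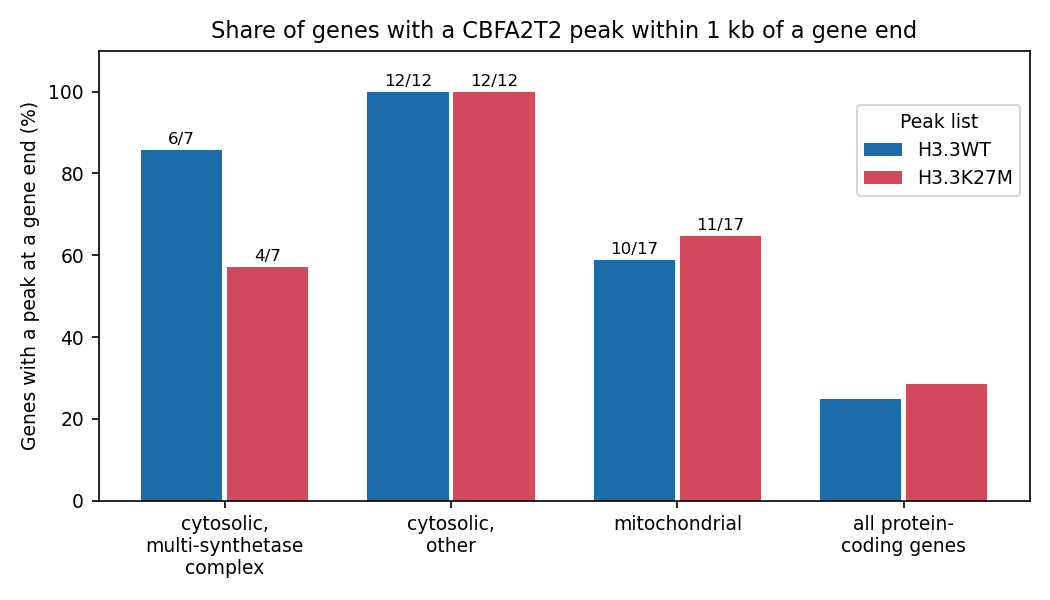
Percentage of genes (vertical axis) with a CBFA2T2 peak summit within 1 kb of a gene end, for cytosolic enzymes inside and outside the multi-synthetase complex, mitochondrial enzymes and all protein-coding genes, in the H3.3WT list (blue bars) and the H3.3K27M list (red bars), with marked and total members above the bars. All 12 cytosolic genes outside the complex are marked in both lists, against 24.8% and 28.6% of all genes. With peaks of at least 5 fold, Gars, Hars, Sars and Tars would each be marked in a single list. Mars1, also of the complex, is outside the rule and not counted in its bars.

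Fold enrichment, which the authors' peak caller computes as ChIP signal relative to a local background, was moderate at most members. Over all 36 members, with unmarked genes ranked lowest, the median fold was 5.75 (H3.3WT) and 5.69 (H3.3K27M), whereas the median protein-coding gene had no peak. The marked members had median folds of 6.90 and 7.30, and all marked genes had 6.91 and 6.29. A fold of at least 10 was reached by 6 of 28 marked members in H3.3WT, beside 1537 of all 5427 marked genes. In H3.3K27M it was reached by 10 of 27 marked members, beside 1452 of all 6256.

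Lars, the leucyl-tRNA synthetase gene of the multi-synthetase complex, had the strongest peak of the family. The H3.3WT peak, at chr18:42261853-42262553, had 32.0 fold (−log10 q of 120). The H3.3K27M peak, at chr18:42261791-42262606, had 23.5 fold (−log10 q of 142). These folds exceeded 99.1% and 97.6% of the peaks in their lists. The summits lay 37 and 10 bp from the gene end. The next highest member in the H3.3WT list was the mitochondrial Fars2, with 15.5 fold.

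Other genes of the multi-synthetase complex were weaker. Iars, for isoleucine, had 8.42 fold in H3.3WT and 4.44 in H3.3K27M. Kars, for lysine, had 5.73 and 6.05 fold, and Qars, for glutamine, had 5.77 and 5.16 fold. Rars (arginine, 4.90 fold) and Dars (aspartate, 4.81 fold) were marked in H3.3WT alone. Eprs, the joint enzyme for glutamate and proline, had no peak at its gene ends, but both lists held a peak 1519 and 1542 bp inside its annotated end, with 10.2 and 16.4 fold. Mars1, which belongs to the same complex, had 12.2 and 13.6 fold at its start.

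Cytosolic enzymes outside the complex ranged from 3.25 to 13.0 fold in the H3.3WT list and from 4.33 to 15.1 fold in the H3.3K27M list. Yars, for tyrosine, had 11.3 and 15.1 fold. Farsa and Farsb, for the subunits of the phenylalanine enzyme, lie on different chromosomes and had similar folds. Farsa had 13.0 and 10.04 fold and Farsb had 11.7 and 10.03 fold. The folds of both subunit genes were the higher ones in the H3.3WT list. Wars (tryptophan) had 9.73 and 11.96 fold, and Nars (asparagine) had 8.73 and 10.5 fold. Vars (valine) had 7.78 and 8.03 fold, and Cars (cysteine) had 6.38 and 6.92 fold. Each of these 4 genes had the higher fold in the H3.3K27M list.

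Gars, the glycine enzyme gene, stood higher in the H3.3WT list, with 9.0 fold and above 75.0% of its peaks, than in the H3.3K27M list, with 4.33 fold and above 24.4%. Tars, for threonine, stood the other way round, with 4.72 fold above 23.9% of H3.3WT peaks and 7.38 fold above 69.1% of H3.3K27M peaks. Hars, for histidine, had 4.91 and 7.30 fold. Sars, for serine, had the weakest marked peak of the family in H3.3WT, at 3.25 fold and −log10 q of 1.72, close to the smallest value in that list (1.33).

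**Figure D2:**
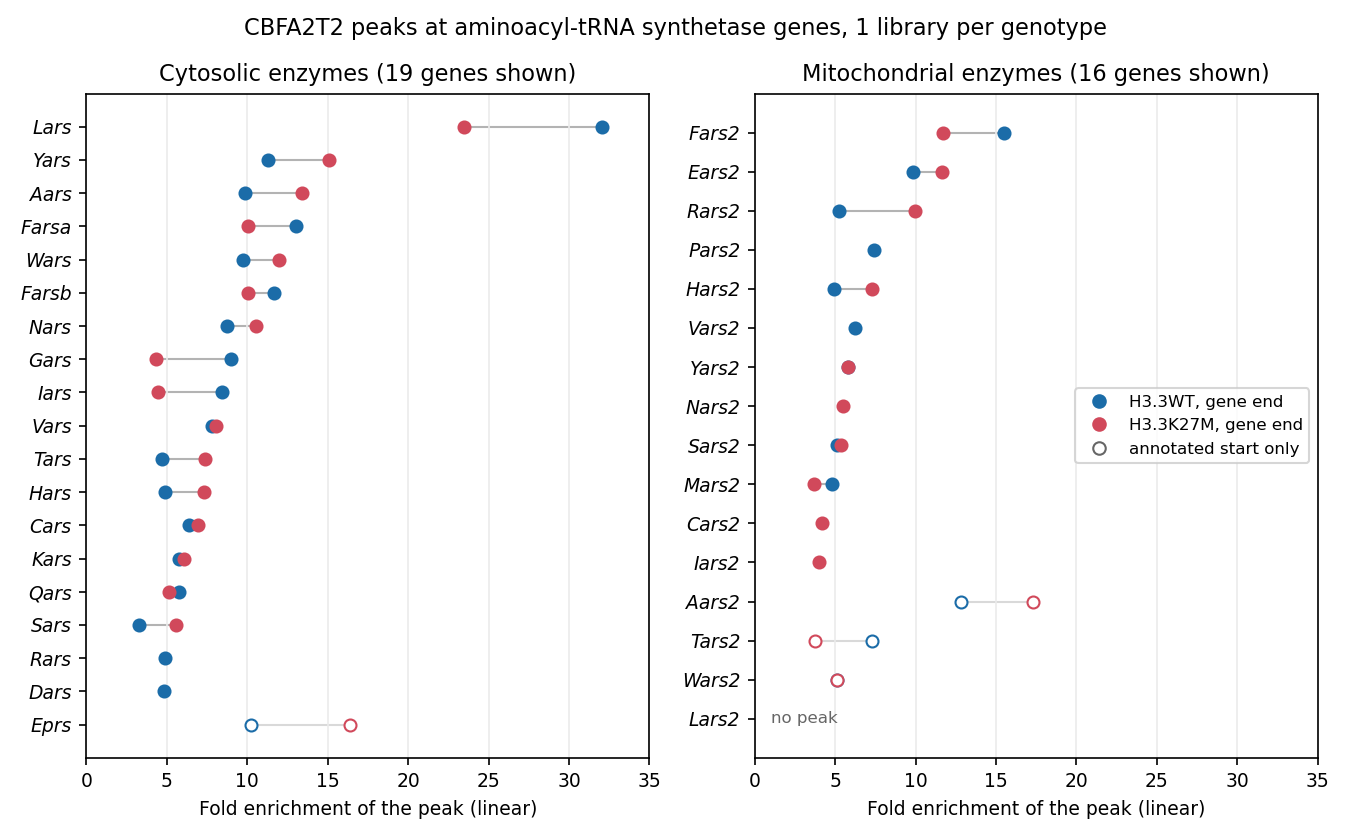
Fold enrichment of the representative CBFA2T2 peak (horizontal axis, linear) for the synthetase genes, cytosolic on the left and mitochondrial on the right, in H3.3WT (blue) and H3.3K27M (red), 1 library each, with filled points for peaks within 1 kb of a gene end and open points for start peaks of genes without one. Lars stands apart at 32.0 and 23.5 fold, and Lars2 has no point.

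Among mitochondrial enzymes, peaks of a broad range of strength were found. Fars2, for phenylalanine, had 15.5 and 11.7 fold, and Ears2, for glutamate, had 9.81 and 11.6 fold. Both peaks also lay at the end of a neighbouring gene. Rars2, for arginine, had 5.21 and 9.94 fold. Hars2 (the peak shared with Hars, 4.91 and 7.30 fold), Yars2 (5.82 in both), Sars2 (5.14 and 5.36) and Mars2 (4.82 and 3.69) were marked in both lists at a lower level. Lars2, the mitochondrial leucine enzyme gene, had no peak inside it or within 5 kb in either list, in contrast to the cytosolic Lars.

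For 13 amino acids the rule gave both a cytosolic gene and its mitochondrial counterpart. Both were marked in both lists for 3 of them, histidine, serine and tyrosine, and the histidine genes share their peak. Singly, 22.2% of all protein-coding genes were marked in both lists, and no share was counted for pairs of genes. In 8 pairs the cytosolic gene was marked in both lists and the mitochondrial one was marked in a single list or in neither. Rars2 was marked in both lists where Rars was not. Of the 8 mitochondrial counterparts, Cars2, Iars2 and Nars2 were marked in H3.3K27M alone and Vars2 in H3.3WT alone. Aars2, Tars2 and Wars2 had a peak in both lists farther than 1 kb from a gene end, at the annotated start. Lars2 had neither a gene-end peak nor a start peak.

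Gene ends missed some starts. RefSeq promoter windows (build GRCm38.p6, the same assembly as mm10), which give a strand and a start, matched 26 members, 12 cytosolic and 14 mitochondrial. Members without a window included Cars, Hars, Hars2, Lars, Nars, Pars2, Rars, Vars and Wars. At the annotated start, within 1 kb, all 12 cytosolic genes had a peak in H3.3WT and 11 in H3.3K27M, and 10 and 12 of 14 mitochondrial genes did. Over all protein-coding genes with a window, the shares were 26.1% and 30.2%, with 23.4% in both lists, where 20 of 26 members were, and 32.9% in either, where 25 were. Eprs, Aars2, Tars2 and Wars2 were unmarked by gene ends and had a start peak in both lists. Aars2, for alanine, stood out among them with 12.8 fold (H3.3WT, chr17:45506635-45507068) and 17.3 fold (H3.3K27M, chr17:45506598-45507137), its summits 9 and 11 bp from the start but 3308 and 3328 bp from the gene end. Tars2 had 7.27 and 3.73 fold, and Wars2 had 5.13 and 5.14 fold with summits 1176 and 1011 bp from its end, just outside the 1 kb limit. Just inside it lay the representative peaks of Aars (710 and 792 bp), Sars (901 and 774 bp) and Nars2 (789 bp, in H3.3K27M alone). With gene ends and starts together, 32 members were marked in H3.3WT and 31 in H3.3K27M, and Lars2 was the 1 member marked in neither. The share of all protein-coding genes under this joint rule was not counted, so these numbers have no background beside them.

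Summits sat close to the start. In H3.3WT the median distance was 40.5 bp over 22 members, against 87 bp over all genes with a start peak, and 18 of the 22 (81.8%) lay within 150 bp, against 68.9%. In H3.3K27M the median was 53 bp over 23 members, against 93 bp, and 22 of the 23 (95.7%) lay within 150 bp, against 66.5%. The H3.3WT summits of Qars (217 bp before the start), Wars2 (193 bp into the gene) and Dars (287 bp into the gene) lay farther out. Sars alone lay beyond 150 bp in both lists, with summits 901 and 286 bp into the gene. Its representative peak in H3.3K27M, of 5.56 fold, lay beyond the other end of the gene, 774 bp from it, and its start peak there had 3.71 fold.

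**Figure D3:**
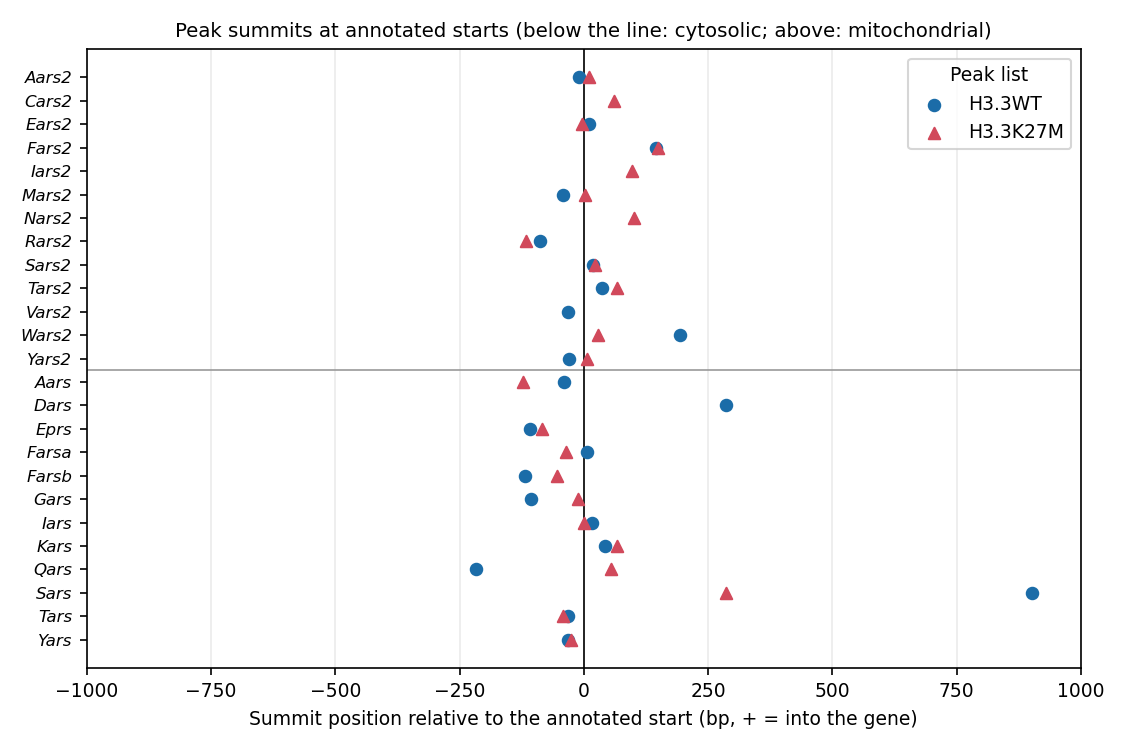
Position of the peak summit relative to the annotated start in bp (horizontal axis, positive into the gene) for the members with a start peak, in H3.3WT (blue circles) and H3.3K27M (red triangles). Most summits lie within 150 bp of the start, and Sars lies at 901 and 286 bp.

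Aars, for alanine, showed 3 peaks in each list, and its representative peak was not the one at its start. The peak at the start had 5.10 fold (H3.3WT, chr8:111033490-111034097) and 6.05 fold (H3.3K27M, chr8:111033550-111034211). A further peak at the outermost annotated end, upstream of that start, had 10.5 and 8.23 fold. The peak with the highest −log10 q, at 9.86 and 13.4 fold, lay past the other end of the gene, 60 and 22 bp from the start of Exosc6, an RNA exosome gene. The gene-end value given for Aars is thus that of a peak which also lies at the start of Exosc6.

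The promoters were searched for 10 short motifs, chosen as letters typical of common promoter factors, on both strands of the windows of 300 bases, 250 before and 50 after the start. No motif on the list contains another, though matches may overlap. The letters TGATGNAA, the response element of ATF4 with C/EBP partners, were found in 5 of 26 members' windows (19.2%), against 3.69% of 17492 protein-coding promoters and 2.05% of the 5757 with a start peak in either list. All 5 were cytosolic genes, Aars, Gars, Iars, Tars and Yars, out of 12, and none of 14 mitochondrial windows held them. The windows of these genes are shown because they carry this element, and in each a copy begins at most 30 bases from the start. The sequences are those of RefSeq, build GRCm38.p6. Bases from 170 before the start to 30 from the start on are printed along the gene's strand, and capitals mark TGATGNAA or its reverse complement.
Aars promoter, chr8:111033672-111033871, plus strand: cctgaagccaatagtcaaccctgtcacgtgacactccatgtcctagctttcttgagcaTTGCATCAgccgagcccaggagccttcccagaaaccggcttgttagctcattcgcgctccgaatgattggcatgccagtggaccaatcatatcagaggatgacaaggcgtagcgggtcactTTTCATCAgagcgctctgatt
Gars promoter, chr6:55037831-55038030, plus strand: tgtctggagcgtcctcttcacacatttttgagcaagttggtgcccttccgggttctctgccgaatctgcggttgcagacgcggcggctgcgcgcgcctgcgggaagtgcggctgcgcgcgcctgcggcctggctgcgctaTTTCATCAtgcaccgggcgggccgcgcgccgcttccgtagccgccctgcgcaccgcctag
Iars promoter, chr13:49681960-49682159, plus strand: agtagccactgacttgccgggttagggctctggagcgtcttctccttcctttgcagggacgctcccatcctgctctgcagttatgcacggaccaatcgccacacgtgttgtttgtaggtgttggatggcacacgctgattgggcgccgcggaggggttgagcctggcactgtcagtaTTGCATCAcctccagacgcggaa
Tars promoter, chr15:11399629-11399828, minus strand: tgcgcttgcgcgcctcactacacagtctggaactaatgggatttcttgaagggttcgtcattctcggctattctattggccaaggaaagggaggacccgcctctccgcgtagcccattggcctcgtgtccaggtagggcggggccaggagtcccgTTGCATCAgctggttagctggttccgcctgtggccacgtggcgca
Yars promoter, chr4:129189733-129189932, plus strand: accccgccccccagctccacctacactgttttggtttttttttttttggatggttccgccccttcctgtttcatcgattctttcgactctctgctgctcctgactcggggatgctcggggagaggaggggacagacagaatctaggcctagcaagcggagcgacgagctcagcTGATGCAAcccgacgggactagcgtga

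Aars holds 2 copies, which begin 112 bases before the start and 9 bases after it. The Gars copy begins 30 bases and the Tars copy 15 bases before the start, and those of Iars and Yars 7 and 3 bases after it. Every one of these 5 starts had a peak in both lists, from 4.72 fold (Tars) to 11.3 fold (Yars) in H3.3WT and from 4.33 fold (Gars) to 15.1 fold (Yars) in H3.3K27M. The other 7 cytosolic starts without these letters had 3.25 to 13.0 fold in H3.3WT. A match is a string of letters and does not show that a factor binds there.

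Several further motifs, though not all, were found in windows of both compartments. CGGAAG, the core of ETS factor sites, was in 13 of 26 windows (50.0%), 5 cytosolic and 8 mitochondrial, against 21.5% of all promoters and 42.5% of those with a start peak. GGGCGGG, of SP and KLF factors, was in 14 (53.8%), against 34.0% and 48.8%. CCAAT, of NFY, was in 12 (46.2%), against 39.0% and 40.5%, and CACGTG, of MYC and MAX, was in 5 (19.2%), against 7.90% and 12.1%. AAGATGG, of YY1, was in 4 (15.4%), against 6.37% and 9.38%. GCATGCGC, of NRF1, was in 3 (11.5%), against 3.61% and 6.74%, and all 3 were mitochondrial (Rars2, Vars2 and Wars2). CANCTG, an E-box letter pattern of the bHLH partners of MTG proteins, was in 13 (50.0%), against 48.0% and 37.8%. CTCGCGAG, of ZBTB33, was in no member's window, against 1.30% of all promoters and 2.83% of those with a start peak. ACTACANNT, part of the ZNF143 element, was in none either, against 5.06% and 9.52%. Shares this low leave few matches to be looked for in 26 windows, and these absences were not tested. The next windows belong to Farsa, Fars2 and Ears2, which were among the members with the highest gene-end fold, and to Nars2, which had the highest −log10 q of the members with a window that were marked in a single list. Sequences are again from RefSeq, and capitals mark the letters given above for SP and KLF factors, ETS factors, YY1, NFY and CANCTG on either strand. CACGTG is not capitalised, and the Ears2 stretch holds a copy that begins 21 bases after the start.
Farsa promoter, chr8:84856816-84857015, plus strand: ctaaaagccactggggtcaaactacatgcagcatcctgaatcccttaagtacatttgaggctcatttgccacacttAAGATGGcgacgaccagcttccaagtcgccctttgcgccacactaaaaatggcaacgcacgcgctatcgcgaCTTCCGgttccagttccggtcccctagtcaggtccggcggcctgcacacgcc
Fars2 promoter, chr13:36117473-36117672, plus strand: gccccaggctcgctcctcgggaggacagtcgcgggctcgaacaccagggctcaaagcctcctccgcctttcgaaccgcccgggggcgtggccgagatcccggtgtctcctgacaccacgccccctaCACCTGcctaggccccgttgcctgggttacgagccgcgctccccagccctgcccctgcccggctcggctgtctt
Ears2 promoter, chr7:122067057-122067256, minus strand: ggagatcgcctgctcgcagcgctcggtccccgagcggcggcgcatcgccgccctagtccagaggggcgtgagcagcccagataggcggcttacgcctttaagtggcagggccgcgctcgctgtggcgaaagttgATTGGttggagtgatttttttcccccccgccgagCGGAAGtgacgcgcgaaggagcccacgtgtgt
Nars2 promoter, chr7:96951357-96951556, plus strand: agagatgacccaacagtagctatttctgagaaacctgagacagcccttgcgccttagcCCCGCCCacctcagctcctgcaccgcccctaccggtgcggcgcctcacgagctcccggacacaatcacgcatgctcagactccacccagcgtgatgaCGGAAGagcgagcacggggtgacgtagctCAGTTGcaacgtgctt

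Members marked in a single list had peaks of low −log10 q. In H3.3WT alone these were Pars2 (7.42 fold, −log10 q of 8.35), for proline, Vars2 (6.24 fold, 6.52), Rars (4.90 fold, 6.93) and Dars (4.81 fold, 4.08). The H3.3WT-alone share over all genes was 2.6%. In H3.3K27M alone they were Nars2 (5.49 fold, 6.77), Iars2 (4.01 fold, 5.20) and Cars2 (4.16 fold, 4.46), where 6.39% of all genes were so marked. The median −log10 q of all marked genes was 12.8 in both lists, above every one of these 7, although the fold of Pars2 exceeded the median of all marked genes in H3.3WT (6.91). The H3.3K27M list had no peak inside or within 5 kb of Pars2, Vars2, Rars or Dars, and the H3.3WT list had none for Nars2 or Iars2. At Cars2 the H3.3WT list held a peak of 4.74 fold inside the gene, 16140 bp from an end, and one of 7.93 fold 4829 bp outside it, at an end of Ing1. A site below the calling threshold leaves no entry, so these genes are not shown to be free of CBFA2T2 in the other genotype.

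For the 24 members marked in both lists, the representative peaks overlapped by at least 1 bp in 23, the exception being Sars. Summits lay within 100 bp of each other in 21 of the 24, and in 3825 of all 4857 genes marked in both, with a median distance of 41 bp in each case. The fold was higher in the H3.3K27M list for 15 of the 24 (62.5%) and in the H3.3WT list for 9, whereas over all 4857 genes marked in both it was higher in H3.3K27M for 46.6%. The split was 10 and 6 for cytosolic and 5 and 3 for mitochondrial genes. Among the 15 were Hars and Hars2, which share a single peak, and Sars, whose representative peaks in the lists did not overlap. A further H3.3K27M peak of Sars, at chr3:108443962-108444395 with 3.40 fold, did overlap its H3.3WT peak at chr3:108443984-108444468. The summit of that further peak lay 1029 bp into the gene, just outside the 1 kb limit. Ears2, Kars, Rars2, Sars2, Vars, Wars and Yars, also among the 15, had a peak that lies at an end of a neighbouring gene too. Of the 9 members with the higher fold in H3.3WT, only Fars2 had such a peak. Aars was also among the 15, by the peak that also lies at the start of Exosc6. Of the other Aars peaks, that at its start went the same way and that at its outermost end the other way. These counts describe 1 library per genotype of unknown read depth and were not tested.

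**Figure D4:**
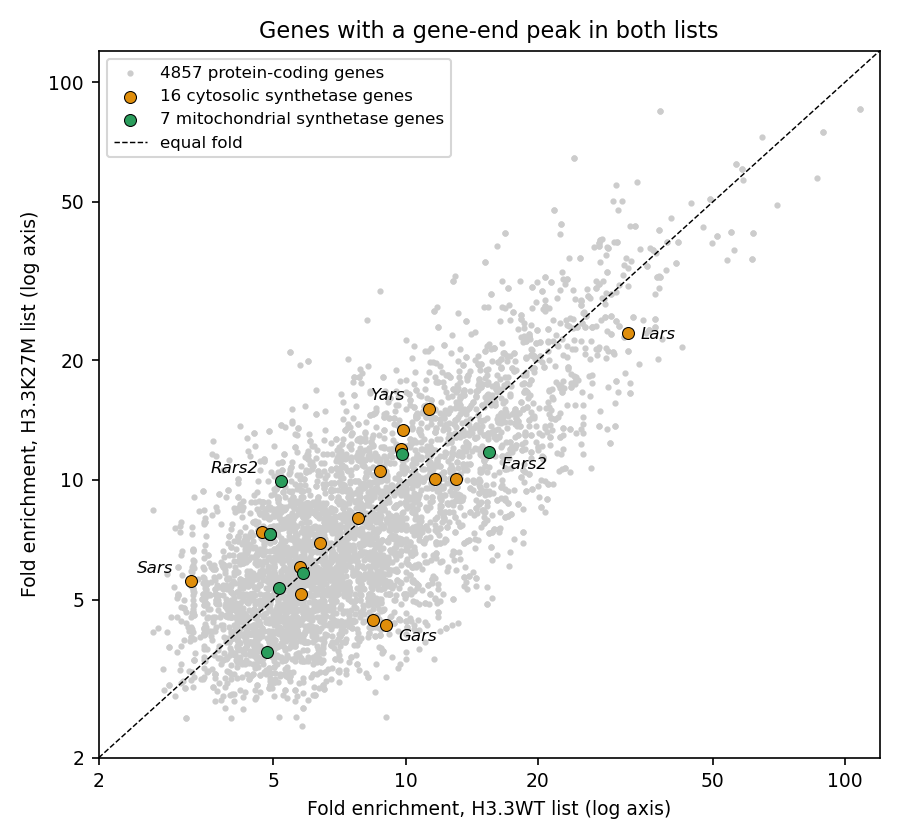
Fold enrichment in the H3.3K27M list (vertical, log axis) against the H3.3WT list (horizontal, log axis) for the 4857 protein-coding genes marked in both (grey), with 16 cytosolic (orange) and 7 of the 8 mitochondrial (green) synthetase genes. The members lie within the cloud of other genes, with Lars at the upper right, and Gars and Rars2 lie on opposite sides of the dashed line of equal fold.

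Several members share their peak with a neighbour, so the peak cannot be assigned to the synthetase gene alone. Kars and Terf2ip, a telomere protein gene, start 5 bp apart on opposite strands, and Rars2 and Orc3, of the origin recognition complex, start 15 bp apart. Ears2 and Ubfd1 start 112 bp apart, and Sars2 and Mrps12, a mitochondrial ribosomal protein gene, 147 bp apart. Fars2 and Lyrm4, a factor of iron-sulfur cluster assembly, start 286 bp apart, and Yars and S100pbp 324 bp apart. Wars shared its peak with Wdr25, and Vars with D17H6S56E-5. The Iars2 peak also lay within 1 kb of an end of Bpnt1 and the Vars2 peak within 1 kb of an end of Gtf2h4, but their starts were 2758 and 6151 bp apart. Farsa, Farsb, Lars, Nars, Gars, Iars, Tars, Qars, Cars and the mitochondrial Yars2 and Mars2 had their representative peak at no other protein-coding gene end.

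Other genes of tRNA charging were read from a list of 29, all of them found in the annotation. In H3.3WT 18 had a gene-end peak, beside 24.8% of all genes. The same 18 had one in H3.3K27M, where the total was 21, beside 28.6% of all genes. The scaffold genes of the multi-synthetase complex, Aimp1 (27.5 and 39.5 fold, a peak shared with Tbck), Aimp2 (5.94 and 7.84 fold) and Eef1e1 (3.58 and 4.18 fold), were all marked. So were the genes of the mitochondrial amidotransferase that makes glutaminyl-tRNA, Gatb (25.3 and 26.2 fold), Gatc (13.2 and 11.5 fold) and Qrsl1 (3.86 and 6.03 fold). Mitochondria have no separate glutamine enzyme, and this complex with Ears2 takes its place. The peaks of Aimp2, Gatc and Qrsl1 also lay at an end of a neighbour in both lists, Pms2, Triap1 and Rtn4ip1 in that order. The Eef1e1 peaks had a −log10 q of 1.84 (H3.3WT) and 3.22 (H3.3K27M), the former close to the smallest in its list (1.33). Trnt1, which adds the CCA end of tRNAs, had 10.04 and 16.6 fold, and the tRNA export gene Xpot had 8.92 and 12.7 fold. The aminoacylation list also held 8 genes of the response to uncharged tRNA, of which 4 and 5 were marked, among them Atf4 itself at 22.1 and 11.7 fold. Unmarked in both lists were Tarsl2, Dtd1, Dtd2, Mtfmt, Pstk, Eif2ak4, Slc7a11 and Slc7a5. Prorsd1, Sephs2 and Asns were marked in H3.3K27M alone, at 3.25 to 4.16 fold. The Sephs2 peak had a −log10 q of 1.78, close to the smallest in that list (1.31).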

How the data were processed

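CBFA2T2 ChIP-seq peak lists of H3.3WT and H3.3K27M cells were used, 1 library each, grouped by the titles in the labels. Per the submitters' processing notes, Trim Galore trimmed the reads, MACS2 called the peaks and the build was mm10. Their versions, the aligner and all settings are not given in the sources used here. Every deposited peak carries a fold (a ratio of ChIP signal over local background), −log10 p and −log10 q, used as the authors deposited them within each list. The deposited score is the −log10 q times 10, without its decimals, and was not used. The lists hold no weaker sites than their smallest −log10 q (1.33 in H3.3WT and 1.31 in H3.3K27M). No read counts are given, so depth is unknown.

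Genes, ends and promoter windows came from RefSeq tables of GRCm38.p6, coordinates 1-based. A gene was marked by a summit within 1 kb of a gene end. Where a gene had several windows, the first listed was used. Counts were made with Python 3.11.15 and pandas 2.3.3, and the assignment was tested on simulated peaks. Nothing was tested between lists for want of replicates. All members were named by rule, except 1 whose values are not reported here, though it stays in the counts. The members and lists were chosen with earlier results of these data known. The complex grouping and 3 printed promoters (Gars, Iars and Tars) were chosen after seeing values, as were the pathway genes named beyond the 4 with the highest −log10 q (Gatb, Aimp1, Atf4 and Trnt1). Alternatives were stricter peak thresholds, equal list lengths, other windows and overlap criteria, the annotated start alone, starts added to gene ends and Mars1 as a member.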

Additional observations from a re-analysis of the deposited data

How the results depend on the processing

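In H3.3WT, marked members numbered 21 with peaks of at least 5 fold and 32 with gene ends or starts together, a setting chosen after seeing the data. In H3.3K27M the same settings gave 22 and 31, and the other alternatives lay between. For neither of these settings was the share of all protein-coding genes counted. Members marked in H3.3K27M alone were 5 in place of 3 with peaks of at least 5 fold, and those in H3.3WT alone were 2 in place of 4 at the annotated start, where fewer genes could be read. At 5 fold the H3.3K27M set was Hars, Hars2, Nars2, Sars and Tars, so membership of these sets depends on the threshold. Within 3 kb of a gene end, the Kars value became that of the Adat1 peak (14.2 and 9.97 fold). No paired analysis was possible because each genotype has 1 library, and no library could be left out for the same reason.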

Other observations

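Peaks at neighbouring genes stood just beyond the window of 3 members. A peak of 14.2 fold (H3.3WT) and 9.97 fold (H3.3K27M) lay 1157 and 1190 bp outside Kars, at an end of Adat1, a gene for a tRNA adenosine deaminase, and exceeded the peak of Kars itself (5.73 and 6.05 fold). Outside Hars2, at an end of Zmat2, a peak had 8.28 and 16.7 fold. At 1120 and 1171 bp outside Qars, a peak at an end of Qrich1 had 4.95 and 7.02 fold, below the peak of Qars itself in H3.3WT (5.77 fold) and above it in H3.3K27M (5.16 fold).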
